A study of Rattus norvegicus with 15 samples.

Results

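Srebf2 and 6 enzymes of the cholesterol synthesis pathway (Hmgcs1, Idi1, Fdft1, Sqle, Lss and Cyp51) were followed in rat liver during CCl4 induced cirrhosis with and without eplerenone. The 7 genes were taken as the rows of the deposited count table that carry these symbols, out of 32623 rows, and each of the 7 was among the 14417 genes that passed the filter on low counts. The set is named for cholesterol synthesis and LDL uptake, but these 7 genes are the transcriptional regulator and 6 synthesis enzymes, and no lipoprotein receptor is among them. Genes of lipoprotein uptake were therefore read from a separate list.

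Cholesterol is built from acetyl-CoA. Hmgcs1 makes HMG-CoA in the cytosol, Idi1 isomerises the isoprenoid building block, Fdft1 joins farnesyl units into squalene, Sqle oxidises squalene, Lss closes the rings to lanosterol and Cyp51 removes a methyl group from lanosterol. Srebf2 encodes SREBP2, a membrane-bound transcription factor of the endoplasmic reticulum that is cut and released to the nucleus when sterols are low and switches on the genes of the pathway as well as those of lipoprotein uptake. In liver, hepatocytes carry most of this synthesis and send cholesterol on to lipoproteins, bile acids and bile.

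RNA from whole livers of age-matched male Wistar rats was sequenced after poly(A) selection. Cirrhosis was induced in rats of 75 to 100 g initial weight by inhaled CCl4 3 times a week for 12 weeks with 0.35 g/L phenobarbital in the drinking water (cirrhosis, n = 5), and a second group received in addition eplerenone, an antagonist of the mineralocorticoid receptor, at 100 mg/kg in hazelnut spread after week 8 (cirrhosis & eplerenone, n = 5). Control rats were untreated per the labels (n = 4, 1 further control rat of the labels is not analysed here), and livers were taken 7 to 10 days after the last CCl4. The contrast with control thus covers CCl4 and phenobarbital together. Whether the other groups received the spread is not given, and the rats for sequencing had been selected by the success of cirrhosis induction or of the eplerenone treatment. The animal labels begin with 13 or 16 in control rats and with 15 or 20 in CCl4 treated rats, so this prefix, whose meaning is not given, and CCl4 cannot be told apart.

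The libraries held between 16157491 and 21574767 counted reads. Levels are given as FPM, the reads of a gene relative to the library total after TMM scaling (trimmed mean of M values, 1 factor per library), where 3 counts correspond to between 0.139 and 0.186 FPM, and they were compared between rats but not between genes, because no gene length was used. Every one of the 7 genes had at least 427 counts in every rat. The tissue label was checked with marker genes. The 5 hepatocyte markers in the table summed to between 121200 and 135700 FPM in control, between 62320 and 126700 FPM in cirrhosis and between 64670 and 121100 FPM in cirrhosis & eplerenone. Most of this sum was Alb, with means of 122800, 79390 and 92030 FPM in the 3 groups. Cyp2e1 had means of 1913, 2003 and 2439 FPM. In cirrhosis against control 1 of the 5 hepatocyte markers was lower (Hal, which degrades histidine), whereas 5 of 5 cholangiocyte markers and 5 of 5 cycling cell markers were higher, 3 of 5 stellate cell, 3 of 4 lymphocyte and 1 of 4 endothelial markers were higher and 1 of 6 macrophage markers was lower (edgeR, false discovery rate, FDR, below 0.05). At this threshold 13.4% of all tested genes were higher and 6.71% lower, and Alb did not pass (FDR 0.146). The estimates of the macrophage markers were above 0 for 2 and below 0 for 4, and those of the endothelial markers for 2 and 2. The summed cholangiocyte markers were 13.9 to 22.3 FPM in control and 41.5 to 133.9 FPM in cirrhosis, and those of stellate cells 118.9 to 214.8 and 232.9 to 464.7 FPM. The part of this change in cell markers in the values below was not tested, and in whole tissue fewer hepatocytes and less RNA per hepatocyte cannot be told apart.

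Upstream sequences are shown because the 6 enzymes are textbook targets of one regulator and most of them moved together from rat to rat. RefSeq (build GRCr8) gave the 250 bases before the start of 5 of the 7 genes, and Sqle and Fdft1 were the other two. Capitals mark the CCAAT box of NF-Y (CCAAT, or ATTGG on the other strand) and the core of a sterol regulatory element (TCACNCC, or GGNGTGA on the other strand), each read 5′ to 3′ on the strand of the gene.
Srebf2, chr7:115543057-115543306 (+ strand): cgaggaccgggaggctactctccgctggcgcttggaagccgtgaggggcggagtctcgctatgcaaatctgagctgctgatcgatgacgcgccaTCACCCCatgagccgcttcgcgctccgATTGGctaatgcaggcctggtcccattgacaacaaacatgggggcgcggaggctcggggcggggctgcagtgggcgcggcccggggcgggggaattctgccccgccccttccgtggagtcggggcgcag
Hmgcs1, chr2:53382054-53382303 (+ strand): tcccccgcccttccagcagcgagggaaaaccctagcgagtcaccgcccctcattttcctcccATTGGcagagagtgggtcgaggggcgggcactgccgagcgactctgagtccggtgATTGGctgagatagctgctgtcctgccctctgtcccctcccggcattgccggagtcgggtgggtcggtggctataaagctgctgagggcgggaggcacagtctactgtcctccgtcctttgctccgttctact
Idi1, chr17:66547525-66547774 (- strand): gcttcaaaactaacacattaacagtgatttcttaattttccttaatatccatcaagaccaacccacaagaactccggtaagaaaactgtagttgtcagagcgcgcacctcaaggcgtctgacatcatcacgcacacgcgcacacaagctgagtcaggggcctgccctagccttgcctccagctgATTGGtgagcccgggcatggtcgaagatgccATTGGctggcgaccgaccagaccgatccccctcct
Lss, chr20:12118231-12118480 (- strand): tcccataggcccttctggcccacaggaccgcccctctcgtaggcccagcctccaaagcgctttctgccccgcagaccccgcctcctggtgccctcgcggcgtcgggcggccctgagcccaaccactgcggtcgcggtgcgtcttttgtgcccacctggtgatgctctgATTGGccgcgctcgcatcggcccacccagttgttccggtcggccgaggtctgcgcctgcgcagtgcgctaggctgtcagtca
Cyp51, chr4:30991443-30991692 (+ strand): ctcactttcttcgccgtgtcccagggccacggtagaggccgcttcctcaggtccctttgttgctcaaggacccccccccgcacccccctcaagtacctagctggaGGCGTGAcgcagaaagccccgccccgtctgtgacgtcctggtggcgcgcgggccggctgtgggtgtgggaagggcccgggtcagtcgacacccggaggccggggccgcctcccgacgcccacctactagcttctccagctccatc
A CCAAT box was found in 4 of these 5 sequences, in all but Cyp51, and in 34.0% of all 33469 promoters of the same length. The core TCACNCC was found in 2 of 5, Srebf2 and Cyp51, against 12.2% of all promoters. The GC box (GGGCGG or CCGCCC, not capitalised) was found in 4 of 5, in all but Idi1, against 30.5% of all promoters. Among the listed pathway genes with a sequence the CCAAT box was found in 29 of 44, the GC box in 31 of 44 and the core TCACNCC in 6 of 44. Both strands were searched and no match overlapped one of another motif. In Srebf2 the core lay 150 to 156 bases before the start with a CCAAT box 125 to 129 bases before it, and Lss had a single CCAAT box 78 to 82 bases before the start. These matches describe letters in this window and are not measured binding sites.

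Of the 7 genes 0 were called in cirrhosis against control by edgeR (quasi-likelihood test, Benjamini-Hochberg FDR below 0.05), where 20.2% of all tested genes were called, and 2 had an unadjusted p under 0.05 (37.1% of all genes). Against cirrhosis, 0 of 7 were called in cirrhosis & eplerenone (0.0139% of all genes) and 0 had an unadjusted p under 0.05 (14.4% of all genes). Against control, 0 of 7 were called in cirrhosis & eplerenone (5.22% of all genes) and 1 had an unadjusted p under 0.05 (20.5% of all genes). DESeq2 called 1 gene in cirrhosis against control (Idi1, background 27.8%), 0 in cirrhosis & eplerenone against cirrhosis (0.514%) and 1 in cirrhosis & eplerenone against control (Lss, 10.6%), so that 0 genes of the set met the study's requirement of a call by both tools in any comparison (20.1%, 0.0139% and 5.2% of all genes). In no comparison did the groups separate for any of the 7 genes, whereas 20.2%, 0.964% and 10.9% of all genes did not overlap in the respective comparisons. The comparisons share groups, and their values stand side by side without a test of one against another.

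**Figure D1:**
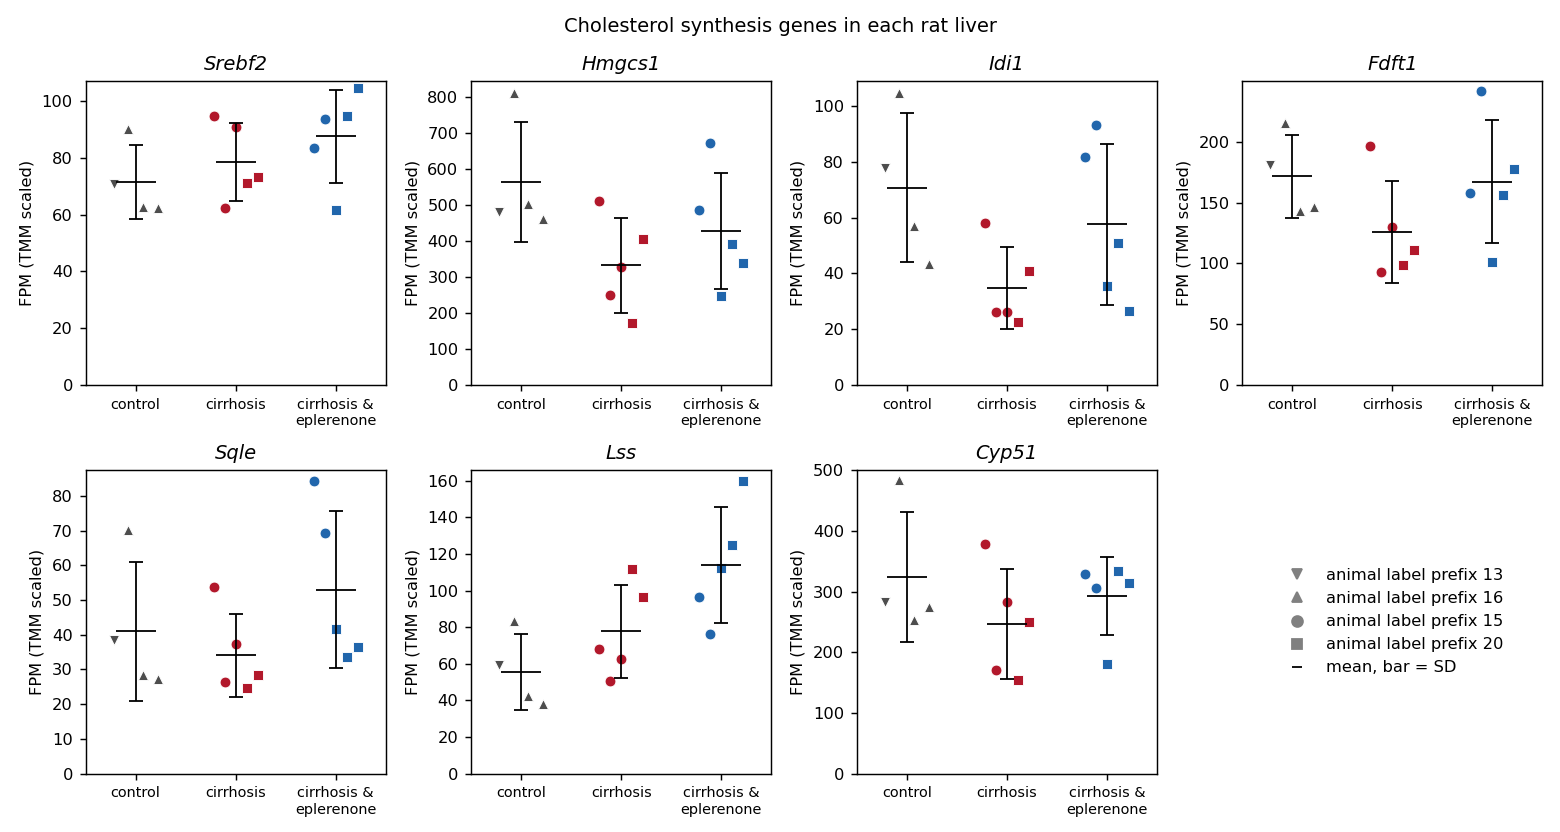
FPM (vertical axis, linear, from 0) of the 7 genes in each rat, by group (horizontal axis), with the mean and SD as lines and the label prefix of the animal as the point shape. The groups overlap for every gene, cirrhosis has the lowest mean for Hmgcs1, Idi1, Fdft1, Sqle and Cyp51, and Lss is lowest in control and highest in cirrhosis & eplerenone.

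Srebf2 (ENSRNOG00000007400, chromosome 7 of rn6), the regulator, had the smallest difference of the 7 genes in both comparisons with the cirrhosis group. Its level was 70.8, 90.3, 62.8 and 62.2 FPM in control rats 2 to 5, 94.7, 62.5, 90.8, 71.3 and 73.3 FPM in cirrhosis rats 1 to 5, and 83.3, 93.5, 61.4, 94.8 and 104.7 FPM in cirrhosis & eplerenone rats 1 to 5. The 3 ranges lay over each other. The means were 71.5 ± 13.1 (SD, n = 4), 78.5 ± 13.7 (n = 5) and 87.6 ± 16.4 FPM (n = 5). The log2 fold change (log2FC) was 0.13 (SE 0.19, 95% interval -0.26 to 0.53) in cirrhosis against control and 0.16 (SE 0.18, -0.22 to 0.53) in cirrhosis & eplerenone against cirrhosis, with edgeR FDR of 0.613 and 0.656. These intervals leave room for a change of up to 1.45-fold upwards in either comparison. The transcript level does not report how much SREBP2 protein was cut and active.

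The early enzymes Hmgcs1 and Idi1 had the largest differences between cirrhosis and control. Hmgcs1 (ENSRNOG00000016552, chromosome 2) stood at 481, 811, 503 and 459 FPM in control, at 511, 249, 326, 173 and 404 FPM in cirrhosis and at 486, 672, 248, 391 and 339 FPM in cirrhosis & eplerenone. All but 1 of the cirrhosis rats lay below every control rat, the exception being cirrhosis rat 1. The mean was 564 ± 166 FPM in control, 333 ± 132 FPM in cirrhosis and 427 ± 162 FPM in cirrhosis & eplerenone. The difference of cirrhosis from control was -0.76 on the log2 scale (SE 0.33, -1.46 to -0.06) and did not pass with edgeR (FDR 0.105) or DESeq2 (FDR 0.0755).

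Idi1 (ENSRNOG00000016690, chromosome 17) stood at 77.8, 104.7, 56.9 and 43.3 FPM in control, at 58.0, 26.2, 26.0, 22.6 and 40.9 FPM in cirrhosis and at 81.7, 93.1, 35.6, 50.8 and 26.6 FPM in cirrhosis & eplerenone. Again cirrhosis rat 1 was the only animal of its group within the control range. The means were 70.7 ± 26.7, 34.7 ± 14.8 and 57.5 ± 28.9 FPM. Cirrhosis was at 0.491 of control (95% interval 0.282 to 0.858), a log2FC of -1.03 (SE 0.38) with an FDR of 0.0652 by edgeR and of 0.0383 by DESeq2. Without cirrhosis rat 1 the edgeR log2FC was -1.27 with an FDR of 0.0382, and without cirrhosis & eplerenone rat 5, which enters only the shared estimate of spread and scaling, it was -1.02 with an FDR of 0.0493. In the other 12 fits that left out 1 rat Idi1 was not called. In cirrhosis & eplerenone against cirrhosis the log2FC was 0.73 (SE 0.36, -0.04 to 1.49, FDR 0.357), and the eplerenone treated rats spanned nearly the ranges of both other groups.

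The enzymes that make and oxidise squalene overlapped widely between groups. Fdft1 (ENSRNOG00000021314, chromosome 15) stood at 181, 216, 143 and 146 FPM in control, 196, 93.0, 130, 99.1 and 111 FPM in cirrhosis and 158, 242, 102, 156 and 178 FPM in cirrhosis & eplerenone. Here 4 of 5 cirrhosis rats lay below all controls, and the group means were 171 ± 34.1, 126 ± 41.8 and 167 ± 50.6 FPM. The log2FC was -0.45 (SE 0.26, FDR 0.217) in cirrhosis against control and 0.41 (SE 0.25, FDR 0.415) in cirrhosis & eplerenone against cirrhosis by edgeR.

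Sqle (ENSRNOG00000009550, chromosome 7) stood at 38.5, 70.1, 28.4 and 27.2 FPM in control, at 53.7, 26.4, 37.3, 24.8 and 28.3 FPM in cirrhosis and at 84.3, 69.2, 41.8, 33.5 and 36.3 FPM in cirrhosis & eplerenone. Control rat 3 was the highest control, and the lowest eplerenone treated rat lay above 3 of the 5 cirrhosis rats. The log2FC was -0.27 (SE 0.34, FDR 0.579) in cirrhosis against control and 0.64 (SE 0.32, -0.05 to 1.32, FDR 0.364) in cirrhosis & eplerenone against cirrhosis by edgeR. The direction of the first value turned without control rat 3, to 0.12, and it was 0.0021 when libraries were scaled by their totals.

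Cyp51 (ENSRNOG00000007234, chromosome 4), which acts after ring closure, had the order of means of Hmgcs1, Idi1 and Fdft1, highest in control and lowest in cirrhosis. It stood at 283, 484, 254 and 274 FPM in control, at 378, 172, 282, 154 and 249 FPM in cirrhosis and at 329, 306, 181, 334 and 315 FPM in cirrhosis & eplerenone. A single high control rat and a single low eplerenone treated rat widened their groups, and 2 of the 5 cirrhosis rats lay within the control range. The means were 324 ± 108, 247 ± 90.6 and 293 ± 63.8 FPM, the log2FC was -0.39 (SE 0.28, FDR 0.322) in cirrhosis against control and 0.25 (SE 0.27, FDR 0.649) in cirrhosis & eplerenone against cirrhosis by edgeR.

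Lss (ENSRNOG00000054549, chromosome 20), lanosterol synthase, had another order. It stood at 59.2, 83.6, 42.2 and 37.8 FPM in control, at 67.9, 50.6, 62.5, 111.6 and 96.4 FPM in cirrhosis and at 96.5, 76.1, 112.3, 125.1 and 159.7 FPM in cirrhosis & eplerenone. In 4 of 5 eplerenone treated rats the level was above every control, and cirrhosis & eplerenone rat 2 was within the control range because of control rat 3. The means were 55.7 ± 20.7, 77.8 ± 25.3 and 114 ± 31.5 FPM.

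The Lss log2FC was 0.48 (SE 0.29, -0.13 to 1.09, FDR 0.228) in cirrhosis against control, 0.55 (SE 0.27, -0.02 to 1.12, FDR 0.353) in cirrhosis & eplerenone against cirrhosis and 1.03 (SE 0.29, 0.42 to 1.65) in cirrhosis & eplerenone against control, a ratio of 2.05 (1.33 to 3.14). The last value had an unadjusted p of 0.00276 and an FDR of 0.0517 by edgeR and an FDR of 0.00938 by DESeq2. It passed with edgeR in 5 of the 14 fits that left out 1 rat, namely those without cirrhosis rats 2, 4 or 5, without control rat 3 and without cirrhosis & eplerenone rat 2. The 2 neighbouring steps in the order of the Lss means did not differ beyond their spread.

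Read as a set, the median log2FC of the 7 genes was -0.39 in cirrhosis against control, 0.41 in cirrhosis & eplerenone against cirrhosis and -0.04 in cirrhosis & eplerenone against control, beside -0.01, 0.01 and 0.01 over all tested genes. In cirrhosis against control 5 of 7 estimates were below 0 (50.7% of all genes) and in cirrhosis & eplerenone against cirrhosis 7 of 7 were above 0 (51.1% of all genes). None of these 7 passed the test, and since the genes vary together in the same rats their shared direction is not 7 separate observations. Scaling by library totals put the median of all genes at 0.28, 0.04 and 0.32 in the 3 comparisons and that of the set at -0.13, 0.41 and 0.23.

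**Figure D2:**
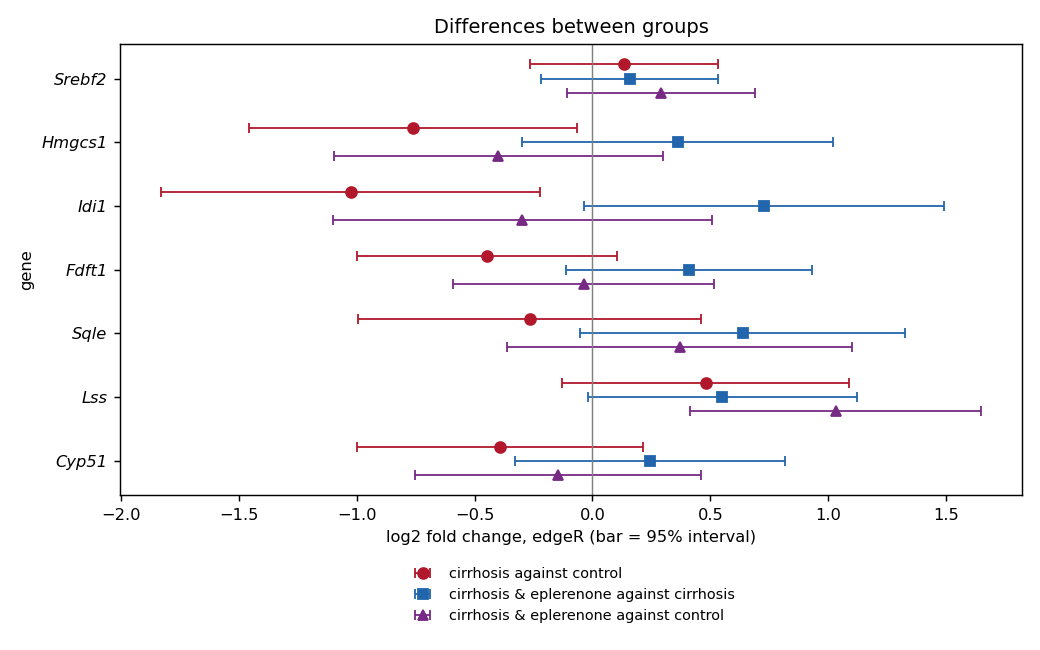
log2FC (horizontal axis) of each gene (vertical axis) in the 3 comparisons as fitted by edgeR, with bars for the 95% interval. The intervals exclude 0 for Hmgcs1 and Idi1 in cirrhosis against control and for Lss in cirrhosis & eplerenone against control, before adjustment over all genes, and all 7 estimates of cirrhosis & eplerenone against cirrhosis are above 0.

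The genes went up and down together within groups. Control rat 3 was the highest control for 7 of 7 genes, with a median deviation of 0.63 from the group mean on the log2 scale, or 1.55-fold, while control rats 4 and 5 were below the mean for 7 of 7. Cirrhosis rat 1 was the highest of its group for 6 of 7 genes, all but Lss, at 1.62-fold of the group mean in the median, and cirrhosis rat 2 was below the mean for 7 of 7. In the eplerenone group rat 2 was above the mean for 6 of 7 genes (1.40-fold in the median) and rat 3 was the lowest for 4 of 7 (0.690-fold). The SD of these medians within groups was 0.41 on the log2 scale. It describes the spread of single rats and is not the error of a difference between group means.

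Over the 14 libraries, which share the 3 groups and their scaling, the Pearson correlation of each gene with the mean of the other 6 was 0.87 for Fdft1 and Cyp51, 0.77 for Sqle, 0.74 for Hmgcs1, 0.69 for Idi1 and 0.65 for Srebf2. For Lss it was 0.07. Lss thus shared the high control rat with the others but not the order of the CCl4 treated rats.

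**Figure D3:**
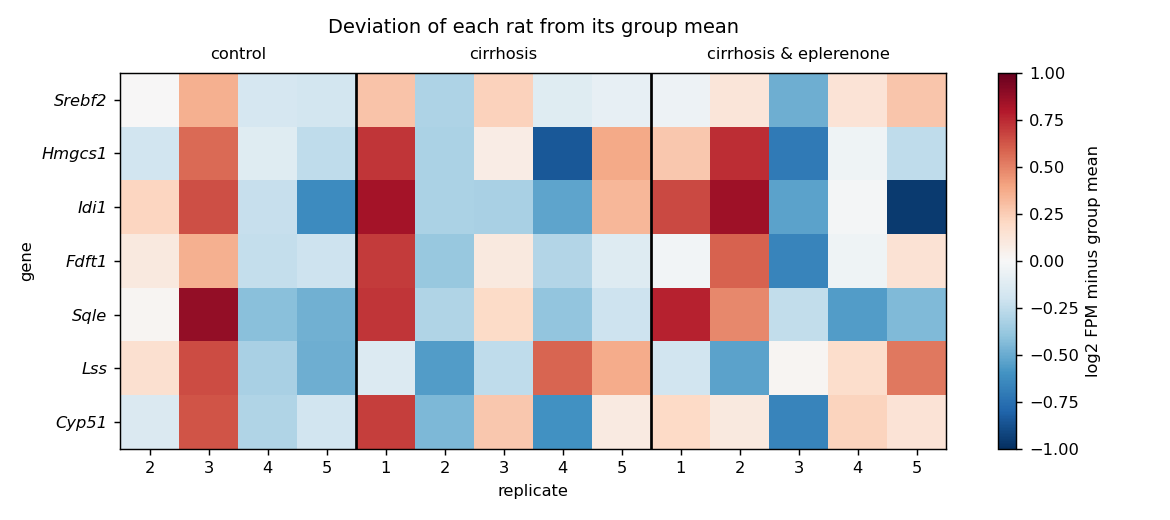
Deviation of each rat (columns, by group and replicate) from its group mean of log2 FPM for each gene (rows), as colour from -1 to 1. Control rat 3 is high for 7 of 7 genes and cirrhosis rat 1 for 6 of 7, and Lss departs from the other rows in the CCl4 treated rats.

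The values of Lss were also read by the prefix of the animal label. In cirrhosis the rats of prefix 15 were at 67.9, 50.6 and 62.5 FPM and those of prefix 20 at 111.6 and 96.4 FPM, and in cirrhosis & eplerenone those of prefix 15 were at 96.5 and 76.1 FPM and those of prefix 20 at 112.3, 125.1 and 159.7 FPM, so the prefixes did not overlap in either group. This split was chosen after the data were seen. The share of all genes that separate by prefix in both groups was not computed, so no conclusion is drawn from the separation. When the prefix was tested in the 10 CCl4 treated rats with the treatment as a term, Lss was 0.71 higher on the log2 scale in prefix 20 (SE 0.17, unadjusted p = 0.00182, FDR 0.234 by edgeR). The other 6 genes had estimates on the other side of 0, from -0.80 for Sqle (unadjusted p = 0.00262, FDR 0.267 by edgeR) and -0.71 for Idi1 to -0.10 for Srebf2. Of the 7 genes 0 were called between prefixes (0.0763% of all genes) and 3 had an unadjusted p under 0.05 (5.53% of all genes).

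The 2 CCl4 groups held the prefixes in unequal shares, with 3 rats of prefix 15 and 2 of prefix 20 in cirrhosis and 2 and 3 in cirrhosis & eplerenone. The comparison of these groups was therefore repeated within each prefix. Within prefix 15 the log2FC of cirrhosis & eplerenone against cirrhosis was 1.25 for Idi1, 0.97 for Sqle, 0.68 for Hmgcs1, 0.52 for Fdft1 and Lss, 0.20 for Cyp51 and 0.10 for Srebf2. Within prefix 20 it was 0.51 for Sqle, 0.48 for Fdft1, 0.47 for Cyp51, 0.36 for Lss, 0.28 for Srebf2, 0.27 for Idi1 and 0.20 for Hmgcs1. All 7 estimates were above 0 in both prefixes, as were those of 26.6% of all genes.

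The eplerenone treated rats lay above the cirrhosis rats without overlap for 3 of 7 genes in prefix 15 (Idi1, Sqle and Lss, 25.6% of all genes) and for 2 of 7 in prefix 20 (Sqle and Lss, 4.33% of all genes). Sqle and Lss did so in both (1.05% of all genes). With the prefix as a term the log2FC of Sqle was 0.73 (SE 0.21, unadjusted p = 0.00467), that of Idi1 0.75 (SE 0.31, unadjusted p = 0.0346) and that of Lss 0.43 (SE 0.17, unadjusted p = 0.0292), each with an FDR of 0.54 by edgeR. With this term 0 of 7 genes were called (0.0145% of all genes) and 3 had an unadjusted p under 0.05 (8.75% of all genes).

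Among 11285 protein-coding genes with at least 1 FPM on average in each group, the 5 whose levels followed the mean of the standardised 7 genes most closely over the 14 libraries were Msmo1 (methylsterol monooxygenase, Pearson r 0.93), Acss2 (cytosolic acetyl-CoA synthetase, 0.87), Acat2 (cytosolic acetyl-CoA acetyltransferase, 0.85), Slc7a10 (an amino acid transporter, 0.84) and Klc4 (a kinesin light chain, 0.81). None of the 5 was called in any of the 3 comparisons by edgeR or DESeq2. Msmo1 had means of 115 ± 62.0 FPM in control, 83.2 ± 42.8 FPM in cirrhosis and 114 ± 49.8 FPM in cirrhosis & eplerenone. Acss2 had means of 58.5 ± 30.1, 35.2 ± 9.43 and 48.0 ± 10.3 FPM, with a log2FC of -0.73 (SE 0.28, FDR 0.0753 by edgeR) in cirrhosis against control.

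The genes around the pathway were read from 5 lists that hold 54 tested genes. In cirrhosis against control 12 of the 54 were called, or 22.2%, beside 20.2% of all genes, 10 of them lower (6.71% of all genes) and 2 higher (13.4% of all genes). DESeq2 called 16, among them all of these 12. The count was 5 without control rat 3, 7 without control rat 4, control rat 5, cirrhosis rat 3 or cirrhosis rat 4, and lay between 8 and 16 in the other fits that left out 1 rat. The share of all genes called in the fits that left out 1 rat was not computed. With libraries scaled by their totals Abcg5, Abcg8, Insig2 and Npc1 were called lower and Dhdds, Srd5a3, Npc2, Mylip and Abcg1 higher. The excess of lower genes was thus not seen with library totals, where the median log2FC of all genes was 0.28. With RLE size factors, another scaling, all 10 lower genes kept the call. The share of all genes called under these 2 scalings was not computed. For cirrhosis & eplerenone against cirrhosis 0 of 54 were called by edgeR, 0 by DESeq2 and 8 had an unadjusted p under 0.05 by edgeR, beside 0.0139%, 0.514% and 14.4% of all genes. For cirrhosis & eplerenone against control 1 was called by edgeR and 7 by DESeq2, beside 5.22% and 10.6% of all genes.

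**Figure D4:**
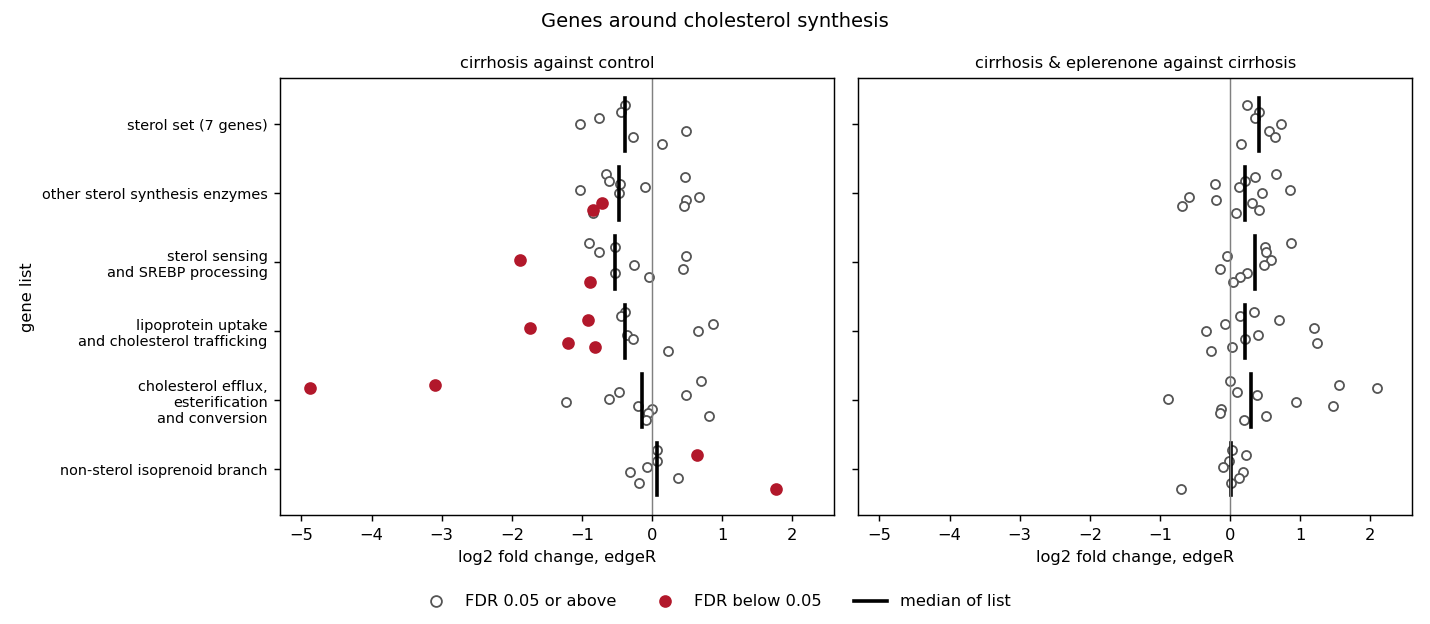
log2FC by edgeR (horizontal axis) of the 7 genes and of the 5 lists around them (vertical axis), in cirrhosis against control (left) and in cirrhosis & eplerenone against cirrhosis (right), with filled points for FDR below 0.05 and a bar for the median of each list. The 12 filled points lie outside the 7 genes, with Abcg8 and Abcg5 farthest to the left and Srd5a3 farthest to the right.

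Of the 13 other sterol synthesis enzymes 2 were called in cirrhosis against control (15.4%, beside 20.2% of all genes), both late enzymes and both lower. The median log2FC of the list was -0.47, with 9 estimates below 0 and 4 above. Mvk, Pmvk and Mvd, chosen for mention after their values were seen, were above 0 in every fit that left out 1 rat. Their estimates ran from 0.10 to 0.83, 0.14 to 0.70 and 0.29 to 1.03, without a call. In cirrhosis & eplerenone against cirrhosis 9 estimates of the list were above 0 and 4 below. There Pmvk and Mvd were below 0 in every fit that left out 1 rat, also without a call. Nsdhl, which takes part in removing the methyl groups at carbon 4, stood at 322 to 416 FPM in control and at 156 to 315 FPM in cirrhosis and fell by 0.71 on the log2 scale (SE 0.21, FDR 0.0293). Sc5d, a late desaturase, stood at 224 to 325 FPM and 116 to 168 FPM and fell by 0.84 (SE 0.23, FDR 0.0212), and for both enzymes the groups did not overlap. Hsd17b7, a ketoreductase of the same steps, had the most negative estimate of the list without a call (-1.03, SE 0.44, FDR 0.101). In cirrhosis & eplerenone against cirrhosis the largest estimate of the list was again that of Hsd17b7 (0.85, FDR 0.355).

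Of the 10 genes of sterol sensing and SREBP processing 2 were called, both lower in cirrhosis. Insig2, which holds the SREBP escort in the endoplasmic reticulum when sterols are plentiful, stood at 146, 225, 303 and 341 FPM in control and at 70.1, 62.1, 69.0, 28.8 and 115 FPM in cirrhosis. It fell by 1.88 (SE 0.49, FDR 0.0172) without overlap of the groups. Srebf1, which encodes SREBP1, the regulator that mainly serves fatty acid synthesis, fell by 0.89 (SE 0.26, FDR 0.0268). In cirrhosis & eplerenone Insig2 ranged from 21.4 to 191 FPM, with estimates of 0.58 (FDR 0.525) against cirrhosis and -1.30 (FDR 0.137) against control.

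Lipoprotein uptake and cholesterol trafficking had 4 of 11 genes called in cirrhosis against control (36.4%, beside 20.2% of all genes), all of them lower (6.71% of all genes). Npc1, which exports cholesterol from lysosomes, stood at 33.2, 57.1, 57.1 and 53.3 FPM in control and at 8.88, 18.0, 6.31, 14.4 and 27.3 FPM in cirrhosis and fell by 1.74 (SE 0.43, FDR 0.0127). Stard4, a soluble sterol carrier, stood at 19.3 to 25.4 FPM and 7.38 to 12.7 FPM and changed by -1.20 (FDR 0.0354), and for both genes every cirrhosis rat was below every control rat. Lrp1, an endocytic receptor for remnant lipoproteins, fell by 0.92 (FDR 0.0424) and Stard5, another sterol carrier, by 0.81 (FDR 0.0336). In cirrhosis & eplerenone against cirrhosis the largest estimate was that of Stard4 (1.23, SE 0.36, unadjusted p = 0.00336, FDR 0.312 by edgeR), with levels of 36.4, 39.9, 9.31, 16.9 and 10.8 FPM in which 2 rats, both of prefix 15, exceeded every other animal. Within prefix 15 Stard4 was called (log2FC 1.98, SE 0.29, FDR 0.0475 by edgeR), and within prefix 20 it was not (0.39, SE 0.37, FDR 1.0). Stard4 was 1 of 2 pathway genes of the 54 called within prefix 15 (0.569% of all genes), beside Nceh1, a cholesterol ester hydrolase chosen for mention after its values were seen (3.19, FDR 0.0475), whose estimate within prefix 20 was -0.49 (FDR 1.0). Within prefix 20, 0 of 54 were called (0.0% of all genes). Stard4 is on the list of eplerenone sensitive genes that the study chose on these samples, so its direction is no independent evidence. Against control the largest estimate was 0.79 for Mylip (FDR 0.148), a ubiquitin ligase for lipoprotein receptors.

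The sterol exporters Abcg5 and Abcg8, which together pump cholesterol into bile, were the 2 genes called among 12 of efflux, esterification and conversion (16.7%, beside 20.2% of all genes). Abcg8 stood at 10.1, 20.7, 3.66 and 3.82 FPM in control and at 0.222, 1.06, 0.162, 0 and 0.0595 FPM in cirrhosis, without overlap, and its log2FC was -4.88 (SE 0.98, FDR 0.00461), -6.35 without cirrhosis rat 2 and -4.18 without control rat 3. The cirrhosis rats had 0 to 26 counts of Abcg8, so the size of this change rests on few reads. Abcg5 stood at 15.1, 31.6, 8.79 and 4.96 FPM in control and at 1.72, 4.77, 0.917, 0.769 and 0.476 FPM in cirrhosis and fell by 3.10 (FDR 0.0178), also without overlap. Its log2FC was -3.95 without cirrhosis rat 2 (FDR 0.00849) and -2.45 without control rat 3 (FDR 0.0674). With lowest counts of 8 for Abcg5 and 0 for Abcg8, neither gene entered the fit that asked for at least 10 counts in every sample. In cirrhosis & eplerenone Abcg8 was between 0.243 and 4.51 FPM, and its estimates, the largest of the list, were 2.09 against cirrhosis (FDR 0.328) and -2.78 against control (FDR 0.0794). The non-sterol branch of the pathway, which leads to dolichol and coenzyme Q, had 2 of 8 genes called in cirrhosis against control (25.0%, beside 20.2% of all genes), both higher.

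Srd5a3, which makes dolichol, stood at 3.31 to 4.27 FPM in control and at 5.83 to 19.2 FPM in cirrhosis and rose by 1.76 (SE 0.33, FDR 0.00315), and its estimates of -0.70 against cirrhosis (FDR 0.32) and 1.06 against control (FDR 0.0695) were the largest of the list in the eplerenone group. Dhdds, a subunit of the enzyme that builds the dolichol chain, stood at 36.1 to 40.0 FPM in control, 44.2 to 74.7 FPM in cirrhosis and 61.6 to 78.4 FPM in cirrhosis & eplerenone. It rose by 0.64 in cirrhosis (FDR 0.013) and by 0.88 in cirrhosis & eplerenone (FDR 0.00781) against control and was the single gene of the lists called in the latter comparison by edgeR. Of the 12 genes called in cirrhosis against control, Npc1, Abcg8, Srd5a3 and Dhdds passed in all 14 fits that left out 1 rat, and Insig2 (not without control rat 5), Sc5d and Abcg5 (not without control rat 3) in 13. Srebf1 passed in 9, Nsdhl and Stard5 in 8, Stard4 in 7 and Lrp1 in 5, and each of these 5 lost the call without control rat 3, control rat 4, cirrhosis rat 3 or cirrhosis rat 4.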

How the data were processed

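The authors deposited 1 table of raw counts per gene. Per the labels and the study's methods, paired-end reads of poly(A) selected RNA were mapped to rn6 with HISAT2 2.1.0, counted over exons with featureCounts 2.0.0 and annotated with BiomaRt 2.44.4 from Ensembl archive 101. Multi-mapping reads were counted at each of their places, so that a gene with a near-identical copy shares reads with it, and the use of strand is not given in the sources used here. All 14 columns were matched to samples by their titles, and 1 control sample was not analysed here. Counts were tested with edgeR 4.0.16 (TMM, filterByExpr with its smallest count of 10, quasi-likelihood F test, 3 groups in 1 model) in R 4.3.3 and with DESeq2 1.42.0, with Benjamini-Hochberg adjustment over all genes tested and a threshold of 0.05. FPM were taken from the TMM scaled library totals, and a prior count of 2 was used on the log2 scale. Intervals are 95% intervals of the edgeR log2FC. Each sample is a separate rat per the labels.

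The 7 genes, the pathway and marker lists and the alternatives were chosen with earlier results of these data known. Named were the 7 genes, each listed pathway gene called in any comparison by edgeR, the gene of each list with the largest absolute log2FC in each comparison, and the 5 protein-coding genes most correlated with the set. Some results that this rule names are not reported here. One further sterol enzyme of the lists and 1 marker each of 3 cell types were not analysed here. Alternatives were DESeq2, RLE factors, library totals, no filter, at least 10 counts in every sample, only the 2 groups compared, 4 samples per group, the replicate number as a block, the label prefix as a term, and leaving out each sample. Fits within a prefix and the test of the prefix were added after the data were seen.

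Replicate numbers did not pair the samples, since the deviations of same-numbered samples from their group means correlated between -0.33 and 0.19, over 0.1 in 3 of 13 pairs. No 2 columns were identical, and replicate libraries of a group correlated between 0.881 and 0.977. The edgeR fit was tested on simulated counts of 14417 genes with 200 changed genes. At 2-fold and 4-fold it recovered 11.5% and 69.5% of them for cirrhosis against control. For cirrhosis & eplerenone the values were 20.0% and 77.0% against cirrhosis and 12.5% and 74.0% against control. In the measured cirrhosis against control 2906 of 14417 genes were called, and the Benjamini-Hochberg cut depends on how many genes change. Recovery was also not split by count level. These shares therefore describe the simulated setting only and do not give the chance of a call for the genes followed here. Upstream sequences were matched by gene symbol to RefSeq promoters of GRCr8 and none was read by coordinates.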

Additional observations from a re-analysis of the deposited data

Results flagged for a closer look

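In 3 of the 21 gene and group combinations 1 rat stood apart from the rest of its group by Dixon's test. For a single combination chance gives about 1 in 20. The genes vary together in the same rats, so the 21 combinations are not separate trials to set against this share. Hmgcs1 was 811 FPM in control rat 3, while the other controls lay between 459 and 503 FPM. Cyp51 was 484 FPM in the same rat, while the other controls lay between 254 and 283 FPM. Cyp51 was 181 FPM in cirrhosis & eplerenone rat 3, while the other rats of that group lay between 306 and 334 FPM.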

How the results depend on the processing

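In cirrhosis against control the count of called genes among the 7 was 1 with DESeq2, 1 with only the 2 groups in the fit and 0 to 1 when each rat was left out. In cirrhosis & eplerenone against control it was 1 with DESeq2, 2 with library totals (Lss and Srebf2), 1 without a filter, 1 with only the 2 groups and 0 to 1 when each rat was left out. It was 0 in every fit of cirrhosis & eplerenone against cirrhosis. The count of called pathway genes in cirrhosis against control was 7 with the replicate number as a block, 16 with DESeq2 and 17 with 4 samples per group. It was 5 to 16 when each rat was left out. Besides the main fit, the share of all genes called was computed only with DESeq2 and in the fits that use the label prefix. Whether the other counts of this section moved apart from those of all genes was not tested. With library totals Sc5d, Srebf1, Nsdhl, Stard5, Stard4 and Lrp1 lost the call, while Npc2, Mylip and Abcg1 gained it. With the replicate block Insig2, Srebf1, Nsdhl, Stard5 and Lrp1 lost the call. For cirrhosis & eplerenone against cirrhosis the count of called pathway genes was 5 with 4 samples per group (Lrp1, Nceh1, Npc1, Srd5a3 and Stard4). That fit left out cirrhosis rat 5 and cirrhosis & eplerenone rat 3, and the share of all genes called in it was not computed. Within label prefix 15 the count was 2 (Nceh1 and Stard4), where 0.569% of all genes were called. In cirrhosis & eplerenone against control it was 7 with DESeq2, 3 with library totals, 4 with only the 2 groups, 2 with 4 samples per group and 1 to 4 when each rat was left out, with 4 without cirrhosis rat 5, 3 without cirrhosis & eplerenone rat 2 and 2 without control rat 2. The replicate block changed no call of the 7 genes. The sign turned for Sqle in cirrhosis against control (0.0021 with library totals, -0.47 to 0.12 leaving out each rat), for Fdft1 in cirrhosis & eplerenone against control (0.23 with library totals, 0.10 with 4 samples per group, -0.21 to 0.10 leaving out each rat) and for Cyp51 in the same comparison (0.14 with library totals, -0.25 to 0.11 leaving out each rat). None of these 3 was called in any setting, and the cause was not tested. Of 483 values of single genes 461 kept direction and side of the threshold. The median of the 7 genes stayed between -0.57 and -0.14 in cirrhosis against control, 0.24 and 0.55 in cirrhosis & eplerenone against cirrhosis and -0.16 and 0.11 in cirrhosis & eplerenone against control when each rat was left out. With counts of 427 or more per rat the spread between rats, not depth, set the width of the intervals.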
